A study of Mus musculus with 7 samples.

Results

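The nuclear-encoded genes of the oxidative phosphorylation complexes were followed in tumor-infiltrating CD8 T cells of the mouse. Members were the gene rows whose name begins with Nduf, Uqcr or Atp5, is Sdha, Sdhb, Sdhc or Sdhd, or begins with Cox4, Cox5, Cox6, Cox7 or Cox8. Rows with -ps in the name, which marks a pseudogene, were dropped, and at least 10 counts in at least 3 libraries were required. Of 98 rows that matched by name, 6 were dropped as -ps and 6 as too low, which left 86 members among 53656 gene rows. All 86 also passed the filter of the test, so no member was lost there. By complex, 44 belong to complex I, 4 to complex II, 8 to complex III, 14 to complex IV and 16 to complex V. Ndufa4 and Atp5sl bear names that point to another complex than their product. Ndufa4 was placed in complex IV, where its protein resides, and the product of Atp5sl, a factor for building the membrane arm of complex I, was counted with complex I.

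Both groups were OT1 CD8 T cells, which carry a transgenic T cell receptor for an ovalbumin peptide, sorted as CD8 and CD45.1 positive from B16-OVA-GP61 tumors. B16 is a mouse melanoma line, and the name of this derivative lists ovalbumin and the GP61 epitope. In the 3 libraries with SMARTA, the tumors also contained SMARTA CD4 T cells, whose transgenic receptor recognizes the GP61 epitope on MHC class II. In the 4 libraries without SMARTA, no such cells were present. Host strain, age, the time of sorting and whether animals were pooled are not given in the labels, so the p-values below measure the spread between these libraries, which may in part be technical. The comparison addresses what tumor-specific CD4 T cells change in tumor-specific CD8 T cells.

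Oxidative phosphorylation couples the oxidation of nutrients to ATP. Complex I takes electrons from NADH and complex II takes them from succinate, ubiquinone carries them to complex III, cytochrome c carries them on to complex IV, which reduces oxygen, and complex V, the ATP synthase, uses the proton gradient that complexes I, III and IV build. Most subunits are encoded in the nucleus, are imported, and assemble with a few subunits encoded by mitochondrial DNA, and all subunits of complex II are nuclear. In CD8 T cells, mitochondrial respiration is known for its part in memory formation, and its decline is known from exhausted cells in tumors.

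Many nuclear respiratory chain genes are known targets of nuclear respiratory factor 1 (NRF1), so the promoters were read for its motif. RefSeq promoters of build GRCm38.p6 were at hand for 74 of the 86 members, 3 of them under another symbol. The motif GCGCANGCG, or CGCNTGCGC as the other strand spells it, lay within 250 bases upstream of the annotated start in 15 of 74 members, or 20.3%, against 5.86% of all 27025 genes in the table. The GABP motif CCGGAAGT or ACTTCCGG lay there in 3 of 74 members (4.1%, against 3.23% of all genes), and the YY1 motif AAGATGGCG or CGCCATCTT in 2 of 74 (2.7%, against 0.71%). No match of one motif overlapped a match of another. The 27025 genes were not filtered for counts in these libraries, as the members were, so the shares compare unlike sets. The 250 bases upstream of the start are printed 5′ to 3′ on the gene's strand for 5 members that recur below, with motif matches in capitals. Atp5g3 and Atp5g1, which encode the rotating c ring of the ATP synthase, had the smallest p-values of all members and held none of the 3 motifs. Ndufaf4, a complex I assembly factor, had 1 NRF1 site, read on both strands from 113 and 112 bases before the start. Sdha, the flavoprotein of complex II, had 3, at 98, 55 and 10 bases, and Cox6a1, a subunit of complex IV, had 2, at 162 bases, again on both strands, and at 117.
Atp5g3 (chr2:73911327-73911576, minus strand): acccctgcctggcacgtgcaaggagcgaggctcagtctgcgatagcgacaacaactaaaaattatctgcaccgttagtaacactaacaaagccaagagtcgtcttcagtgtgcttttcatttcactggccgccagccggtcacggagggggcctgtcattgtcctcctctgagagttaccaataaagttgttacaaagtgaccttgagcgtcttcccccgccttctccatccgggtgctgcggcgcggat
Atp5g1 (chr11:96075632-96075881, minus strand): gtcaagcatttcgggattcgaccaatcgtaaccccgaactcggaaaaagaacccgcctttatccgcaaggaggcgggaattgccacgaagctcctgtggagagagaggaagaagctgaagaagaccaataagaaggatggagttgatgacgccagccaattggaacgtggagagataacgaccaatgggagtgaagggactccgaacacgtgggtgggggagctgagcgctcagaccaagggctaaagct
Ndufaf4 (chr4:24897833-24898082, plus strand): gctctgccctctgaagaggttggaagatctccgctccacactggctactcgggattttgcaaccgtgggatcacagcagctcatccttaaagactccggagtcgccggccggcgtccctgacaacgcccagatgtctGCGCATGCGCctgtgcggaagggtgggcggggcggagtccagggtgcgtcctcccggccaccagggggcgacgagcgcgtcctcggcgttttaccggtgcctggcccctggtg
Sdha (chr13:74350241-74350490, minus strand): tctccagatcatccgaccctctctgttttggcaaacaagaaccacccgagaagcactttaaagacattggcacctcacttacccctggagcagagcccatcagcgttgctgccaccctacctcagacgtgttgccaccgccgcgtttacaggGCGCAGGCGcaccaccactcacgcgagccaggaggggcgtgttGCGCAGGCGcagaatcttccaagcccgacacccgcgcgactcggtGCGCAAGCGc
Cox6a1 (chr5:115348959-115349208, minus strand): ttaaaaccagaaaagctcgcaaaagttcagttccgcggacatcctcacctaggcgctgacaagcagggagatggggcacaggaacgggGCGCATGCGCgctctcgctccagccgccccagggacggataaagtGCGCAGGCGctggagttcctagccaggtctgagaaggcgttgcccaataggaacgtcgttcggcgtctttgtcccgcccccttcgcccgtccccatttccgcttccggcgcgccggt
A match describes these letters only. The median log2 fold change, given as with minus without SMARTA here and throughout, was −0.28 over the 15 members with an NRF1 match (range −0.91 to 0.20) and −0.31 over the 59 promoter-matched members without one.

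Libraries held 38092722 to 49438357 counts assigned to genes. Levels are given as CPM, counts scaled to a common library size with TMM factors, unless another scale is named. The CD8 T cell markers Cd3e, Cd3d, Cd8a and Cd8b1 summed to 5190 to 6201 CPM of the library total with SMARTA and to 4584 to 6147 without, so the labelled cell type was borne out in every library. Some libraries stood apart. The 5 erythroid genes tested summed to 4804, 9.65 and 211 CPM in replicates 1 to 3 with SMARTA, against 97.7, 34.9, 223 and 184 CPM in replicates 1 to 4 without, so replicate 1 with SMARTA held the most. Replicate 2 without SMARTA held the most melanoma transcript, 66.9 CPM over 5 genes, where the others held 6.65 to 16.7. The CD4 T cell genes Cd4, Cd40lg and Foxp3 summed to 91.99 to 104.9 CPM with SMARTA and 31.7 to 74.4 without, the neutrophil genes to 0.516 to 2.00 and 2.70 to 33.8, the macrophage and monocyte genes to 29.6 to 195 and 48.5 to 179, the B cell genes to 11.2 to 58.9 and 4.98 to 32.5, the fibroblast genes to 7.77 to 38.7 and 0.760 to 43.5, and the endothelial genes to 137 to 186 and 82.5 to 117. The CD4 T cell, neutrophil and endothelial sums did not overlap between the groups, but 1 gene carried the first and the last. Cd40lg gave 88.1 to 101 CPM of the CD4 T cell sum with SMARTA and 26.2 to 68.1 without, while Cd4 itself overlapped (2.05 to 8.09 and 0.66 to 7.31), as did Foxp3 (0 to 1.84 and 0.64 to 11.97). Pecam1 gave nearly all of the endothelial sum, and the defining endothelial genes Cdh5 and Kdr stayed at 0 to 1.46 CPM with SMARTA and 0 to 0.35 without. Retnlg, of the neutrophil list, was at 0 in all libraries with SMARTA and in replicates 3 and 4 without. None of the markers tested was called between the groups. Tested were 3 of 4 neutrophil, 4 of 5 melanoma and 2 of 3 endothelial genes, and all genes of the other lists. The part of these markers in the results below was not tested.

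Most nuclear-encoded respiratory chain genes had slightly lower estimates in OT1 cells from tumors with SMARTA, and no single member passed the test. The log2 fold change was negative for 78 of the 86 members, or 90.7%, against 50.2% of the 15896 genes tested. Its median was −0.31 over the members and 0.00 over all genes, and the members ranged from −1.30 for Cox7a1 to 0.47 for Atp5sl. With 1 library left out at a time, 67 to 79 of the members were negative, the fewest without replicate 3 with SMARTA. None of the 86 members was called by edgeR's quasi-likelihood test at a Benjamini-Hochberg adjusted p under 0.05, where 3.15% of all genes were called, 1.52% higher and 1.63% lower. At an unadjusted p under 0.05, 14 members lay lower with SMARTA and 0 higher, or 16.3% of members against 9.37% of all genes on the lower side and 9.18% on the higher. In 16 members every library with SMARTA lay below every library without, or 18.6% of members against 10.5% of all genes. For no member was the order the other way round, against 8.73% of all genes. The members share the same 7 libraries and move together within them, so their number does not stand for independent evidence. In bulk samples, fewer cells with a transcript and less of it per cell cannot be told apart.

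**Figure D1:**
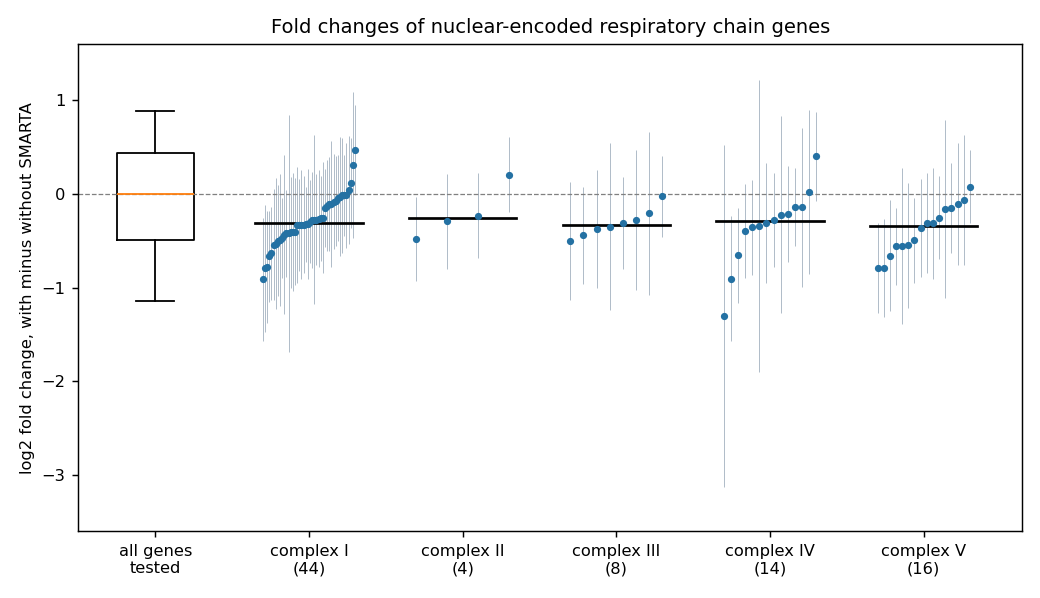
Log2 fold change of each of the 86 members, with minus without SMARTA, by complex (points; thin lines are 95% confidence intervals from edgeR; black bars are the medians of the complexes). The box at the left gives the median and quartiles of all 15896 genes tested, with whiskers at the tenth and ninetieth percentiles. The medians of the 5 complexes lie between −0.34 and −0.26, and that of all genes at 0.00.

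The precision was enough to bound most members. For 55 of the 86, the whole 95% confidence interval of the log2 fold change lay between −1 and 1, so changes of more than 2-fold in either direction lay outside it. The limma-voom test also called 0 members, and 6 with sample quality weights. DESeq2 called 6 members, all lower with SMARTA, namely Atp5g1, Atp5g3, Ndufa4, Ndufaf4, Ndufc1 and Ndufc2, among 1741 genes called in all. Without replicate 1 with SMARTA, the library richest in erythroid transcript, edgeR called 1 member, Atp5a1, and the median of the members was −0.44. With that library and replicate 2 without SMARTA both left out, an alternative chosen after seeing the data, it called 5 members, Atp5a1, Atp5g1, Atp5g3, Ndufc2 and Ndufs8, all lower, and the median was −0.50.

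Summed over all members, the set reached 12050, 9676 and 8909 CPM in replicates 1 to 3 with SMARTA, against 13730, 11200, 13020 and 12780 CPM in replicates 1 to 4 without. Replicate 1 with SMARTA lay within the range of the other group and replicates 2 and 3 lay below it. The mean was 10210 ± 1638 CPM with SMARTA and 12680 ± 1065 CPM without (SD, n = 3 and 4), a ratio of 0.805. Scaled by library total alone, the sums did not overlap, with 11500, 9408 and 7955 CPM with SMARTA against 14300, 12460, 13190 and 13090 CPM without. That scaling also moved the median of all genes to −0.16 and of the members to −0.46.

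**Figure D2:**
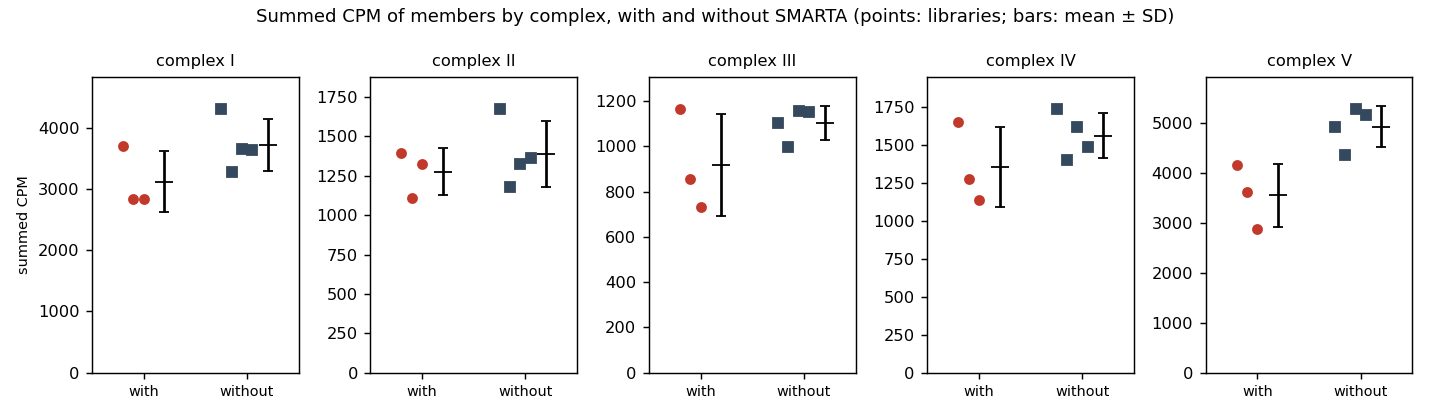
Summed CPM of the members of each complex in every library with SMARTA (circles, left) and without (squares, right), with the mean and SD of each group. The groups are apart for complex V, at 2881 to 4147 CPM with SMARTA and 4358 to 5276 CPM without, and overlap for complexes I to IV.

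Complex I, the NADH dehydrogenase, had negative medians in its catalytic core (−0.32), its accessory subunits (−0.27) and its assembly factors (−0.33). Its 44 members summed to 3691, 2829 and 2830 CPM with SMARTA, against 4305, 3270, 3646 and 3638 CPM without, so that 1 library with SMARTA overlapped the other group. The median log2 fold change was −0.31, and 40 of the 44 were negative. None was called, and 6 lay lower at an unadjusted p under 0.05 (13.6%, against 9.37% of all genes). In 8, all libraries with SMARTA lay below all others (18.2%, against 10.5% of all genes).

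All 7 core subunits that carry electrons through the matrix arm had negative values. Ndufs1, which holds iron-sulfur clusters, had 134, 167 and 197 CPM with SMARTA, against 253, 202, 186 and 249 CPM without (log2 fold change −0.42, SE 0.20, adjusted p = 0.321 by edgeR). Ndufv1, which binds NADH and the flavin, had 223, 153 and 188 CPM with SMARTA, against 273, 204, 214 and 233 CPM without (log2 fold change −0.29, adjusted p = 0.487 by edgeR). Both genes overlapped between the groups. Ndufs7, which holds the last cluster before ubiquinone, had 191, 113 and 88.7 CPM with SMARTA, against 121, 119, 156 and 134 CPM without (log2 fold change −0.02, 95% confidence interval −0.63 to 0.60). Ndufv2 was the 1 core subunit without overlap, with 137, 121 and 119 CPM with SMARTA, against 182, 139.6, 143 and 165 CPM without.

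Among the 29 accessory subunits, the pair Ndufc1 and Ndufc2 of the membrane arm had the smallest p-values. Ndufc2 (chromosome 7 from 97400003 to 97407802, GRCm38) had 60.2, 47.1 and 48.1 CPM with SMARTA, against 97.5, 64.9, 80.2 and 86.0 CPM without. Every library with SMARTA lay below every library without, and the log2 fold change was −0.67 (SE 0.21, adjusted p = 0.135 by edgeR). Ndufc1 had 20.97, 19.2 and 14.3 CPM with SMARTA, against 40.8, 26.6, 26.9 and 30.1 CPM without, also with no overlap (log2 fold change −0.78, adjusted p = 0.159 by edgeR). Ndufb6, Ndufb8 and Ndufa12 were the other accessory subunits without overlap, at log2 fold changes of −0.63, −0.47 and −0.50 and adjusted p of 0.162, 0.221 and 0.360 by edgeR. Ndufb6 shares 39.0% of its exon length with Toporsos, an overlapping gene, and reads that fall on both were not counted. Positive values among the accessory subunits were those of Ndufa6 (0.31), Ndufa3 (0.12) and Ndufa13 (0.04), all overlapping between the groups. Per kilobase of exon, Ndufa8 was the most abundant member of the complex, at 140 RPKM with SMARTA and 169.5 RPKM without on average.

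The 8 assembly factors held both ends of the complex I range. Ndufaf4 (chromosome 4 from 24898083 to 24905001), which helps to build the arm that reduces ubiquinone, had 15.9, 29.1 and 19.1 CPM with SMARTA, against 45.6, 40.1, 29.3 and 45.7 CPM without. The groups met at 29.1 and 29.3 CPM without overlapping, and the log2 fold change was −0.91 (SE 0.29, adjusted p = 0.134 by edgeR). Ndufaf2, a late assembly factor, had 5.62, 6.75 and 7.29 CPM with SMARTA, against 13.5, 8.07, 10.8 and 13.1 CPM without (log2 fold change −0.79, adjusted p = 0.200 by edgeR), and shares 65.6% of its exon length with other genes. At the other end, Atp5sl had 77.2, 57.1 and 76.7 CPM with SMARTA, against 46.7, 62.0, 48.6 and 45.4 CPM without. Replicates 1 and 3 with SMARTA lay above the whole other group and replicate 2 lay within it, and the log2 fold change of 0.47 was the highest of all members (adjusted p = 0.277 by edgeR).

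In complex II, succinate dehydrogenase, the catalytic subunits differed in sign. Sdhb, the iron-sulfur subunit, had 331, 248 and 296 CPM with SMARTA, against 482, 331, 443 and 373 CPM without. The highest library with SMARTA met the lowest without to within 1 CPM, and the log2 fold change was −0.48 (SE 0.20, adjusted p = 0.232 by edgeR). Sdha, the flavoprotein that oxidizes succinate, had 651, 520.3 and 634 CPM with SMARTA, against 607, 459, 466 and 557 CPM without. Its groups overlapped, and the log2 fold change was 0.20 (95% confidence interval −0.20 to 0.61, adjusted p = 0.605 by edgeR). The membrane anchors Sdhc and Sdhd had log2 fold changes of −0.29 and −0.23 (adjusted p = 0.554 and 0.605 by edgeR), and Sdhd was the most abundant of the 4 per kilobase of exon, at 198 RPKM with SMARTA and 232 RPKM without. The complex summed to 1394, 1107 and 1327 CPM with SMARTA, against 1674, 1177, 1326 and 1363 CPM without, a ratio of 0.921 and the nearest to 1 of the 5 complexes.

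The ratio of Sdha to Sdhb within a library does not depend on scaling between libraries. Per kilobase of exon it was 1.07, 1.14 and 1.16 in replicates 1 to 3 with SMARTA, against 0.684, 0.752, 0.571 and 0.809 in replicates 1 to 4 without. On this scale Sdha was above Sdhb in every library with SMARTA and below it in every library without. In CPM, Sdha was above Sdhb in every library of both groups, so that order rests on the exon lengths (4126 and 2239 bases). The shift of the ratio between the groups does not. This ratio, and that of Cox7a2l to Cox7a2 given with complex IV, were chosen after their values were seen and were given no test. Of the 3655 ratios between any 2 members, 582 (15.9%) did not overlap between the groups, and of the 1191 within a complex, 203 (17.0%).

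In complex III, which passes electrons from ubiquinol to cytochrome c, all 8 members had negative log2 fold changes, from −0.50 to −0.02 with a median of −0.33. None reached an unadjusted p of 0.05 or was free of overlap. Cyc1, the cytochrome c1 of the complex, falls outside the name rule and is given with the other mitochondrial lists. The small accessory subunit Uqcr10 had 83.1, 62.8 and 63.1 CPM with SMARTA, against 122, 73.6, 93.1 and 90.3 CPM without (log2 fold change −0.44, adjusted p = 0.348 by edgeR), and was the most abundant member per kilobase of exon, at 119 RPKM with SMARTA and 162 RPKM without. Uqcrb, which helps to shape the ubiquinone site, had a log2 fold change of −0.50 and Uqcrc2, a core protein of the matrix side, of −0.31 (adjusted p = 0.391 and 0.511 by edgeR). Uqcrfs1, the Rieske iron-sulfur protein, had 34.1, 34.0 and 12.3 CPM with SMARTA, against 23.7, 31.3, 45.8 and 35.8 CPM without. Uqcrc1, the other core protein, had 546, 307 and 169.5 CPM with SMARTA, against 258, 385, 497 and 431 CPM without. For both, the first group alone spanned most of the range of all 7 libraries, and the 95% confidence intervals were wide (−1.24 to 0.54 and −1.07 to 0.66). The sums were 1165, 857 and 729.7 CPM with SMARTA, against 1104, 994, 1156 and 1150 CPM without, with replicate 1 with SMARTA the highest of all 7 libraries and its replicates 2 and 3 the lowest.

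Complex IV, cytochrome c oxidase, had 12 of 14 negative members and a median of −0.29. Ndufa4 (chromosome 6 from 11900292 to 11907497) had 64.6, 47.3 and 52.2 CPM with SMARTA, against 155, 71.6, 81.7 and 100.3 CPM without. All libraries with SMARTA lay below all others, of which replicate 1 stood highest, and the log2 fold change was −0.90 (SE 0.29, adjusted p = 0.143 by edgeR). Cox7a2 had 74.6, 64.6 and 64.7 CPM with SMARTA, against 141, 82.0, 98.5 and 107 CPM without, again with no overlap (log2 fold change −0.66, adjusted p = 0.159 by edgeR). Cox7b was the third member without overlap (log2 fold change −0.39, adjusted p = 0.394 by edgeR). Its groups nearly met, at 73.4 CPM with SMARTA and 73.8 CPM without. These 3 members made up 21.4% of the complex, against 10.5% of all genes that lay lower without overlap. Cox4i1, a subunit through which the enzyme is regulated, had 445, 329 and 371 CPM with SMARTA, against 495, 389.7, 429 and 372 CPM without (log2 fold change −0.14, 95% confidence interval −0.56 to 0.27), and was the most abundant per kilobase of exon on average over all libraries, at 246 RPKM with SMARTA and 272 RPKM without.

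Cox7a2l, a relative of Cox7a2 known as a supercomplex assembly factor that links complexes III and IV, lay on the other side. It had 151, 102 and 139 CPM with SMARTA, against 104, 117, 85.9 and 87.9 CPM without, where replicates 1 and 3 with SMARTA lay above the whole other group and replicate 2 within it (log2 fold change 0.40, SE 0.21, adjusted p = 0.354 by edgeR). The ratio of Cox7a2l to Cox7a2 per kilobase of exon was 1.67, 1.30 and 1.77 with SMARTA, against 0.610, 1.17, 0.718 and 0.678 without. Replicate 2 of each group came nearest to the other group, and the groups did not overlap.

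The tissue-restricted isoforms were at or near the floor in these cells. Cox7a1, the heart and muscle isoform, was the member closest to the count limit, with its third-highest count at 15, and averaged 0.378 RPKM with SMARTA and 0.931 RPKM without, beside 72.0 and 113 RPKM for Cox7a2. Its log2 fold change of −1.30 had a 95% confidence interval of −3.13 to 0.52 and was not distinguishable from no difference at this depth (adjusted p = 0.448 by edgeR). Cox6b2, the testis isoform, averaged 1.05 RPKM with SMARTA and 1.33 RPKM without, beside 185 and 224 RPKM for Cox6b1. The log2 fold change of Cox6b2 was −0.34 (95% confidence interval −1.90 to 1.22, adjusted p = 0.850 by edgeR), and that of Cox6b1 was −0.28 (95% confidence interval −0.78 to 0.22, adjusted p = 0.570 by edgeR). The next members above the limit were Cox6b2, Ndufaf6 and Ndufb4, with third-highest counts of 54, 111 and 316. Just below the limit were Cox8b and Ndufa4l2, which had at least 10 counts in 2 libraries each and at most 35 and 33 counts in any. Cox4i2, Cox6a2, Cox7b2 and Cox8c had at most 11, 8, 4 and 2 counts in any library.

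Complex V, the ATP synthase, was the 1 complex whose sums did not overlap between the groups under TMM scaling, and by library totals complex I did not overlap either. Its 16 members summed to 4147, 3606 and 2881 CPM with SMARTA, against 4906, 4358, 5276 and 5144 CPM without. The ratio of the means was 0.720, or 0.738 when Atp5a1, the most abundant member, was left out. The median log2 fold change was −0.34, 15 of 16 were negative and none was called. At an unadjusted p under 0.05, 5 lay lower (31.2%, against 9.37% of all genes). The same number lay lower without overlap (31.2%, against 10.5% of all genes).

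The c ring, which turns as protons pass, is built from 1 mature protein that Atp5g1, Atp5g2 and Atp5g3 all encode with different import sequences. Atp5g3 (chromosome 2 from 73908447 to 73911326), whose upstream sequence is printed above, had 242, 216 and 149 CPM with SMARTA, against 357, 314, 329.6 and 399 CPM without. The highest library with SMARTA stayed below the lowest without, and the means were 202 ± 48.0 and 349.8 ± 37.5 CPM (SD, n = 3 and 4). The log2 fold change was −0.79 (SE 0.21), with the smallest p of all members and an adjusted p of 0.0802 by edgeR. Atp5g1 (chromosome 11 from 96068852 to 96075670) had 75.6, 59.3 and 52.3 CPM with SMARTA, against 140.2, 89.6, 99.4 and 102 CPM without, with no overlap (log2 fold change −0.79, SE 0.23, adjusted p = 0.106 by edgeR). Atp5g2 had 20.2, 14.7 and 15.1 CPM with SMARTA, against 25.8, 17.1, 21.4 and 18.6 CPM without, with overlap (log2 fold change −0.31, adjusted p = 0.593 by edgeR). Per kilobase of exon, the 3 genes averaged 92.7, 12.7 and 9.96 RPKM with SMARTA, against 160.4, 21.9 and 12.4 RPKM without, in the order Atp5g3, Atp5g1, Atp5g2.

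In the F1 head, where ATP is made, Atp5a1 encodes the alpha subunit (chromosome 18 from 77773729 to 77782869). It had 1219, 916 and 899 CPM with SMARTA, against 1573, 1263, 1521 and 1599.6 CPM without. The groups were apart by less than the range within either (log2 fold change −0.56, SE 0.18, adjusted p = 0.137 by edgeR). Atp5b, the catalytic beta subunit, had 1111, 1037 and 425 CPM with SMARTA, against 789, 1212, 1695 and 1339 CPM without. Its log2 fold change of −0.55 was close to that of Atp5a1, but replicate 3 with SMARTA lay far below the rest and the groups overlapped (SE 0.36, adjusted p = 0.482 by edgeR). In the peripheral stalk, which keeps the head from turning, Atp5j had 86.2, 96.8 and 86.2 CPM with SMARTA, against 206, 109, 107 and 144 CPM without, and did not overlap (log2 fold change −0.66, adjusted p = 0.217 by edgeR). Atp5o, the subunit that joins stalk and head, did not overlap either (log2 fold change −0.49, adjusted p = 0.228 by edgeR), and shares 44.0% of its exon length with neighbouring genes. Atp5h, another stalk subunit, was the 1 member of the complex with a positive value (log2 fold change 0.08, 95% confidence interval −0.31 to 0.46).

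**Figure D3:**
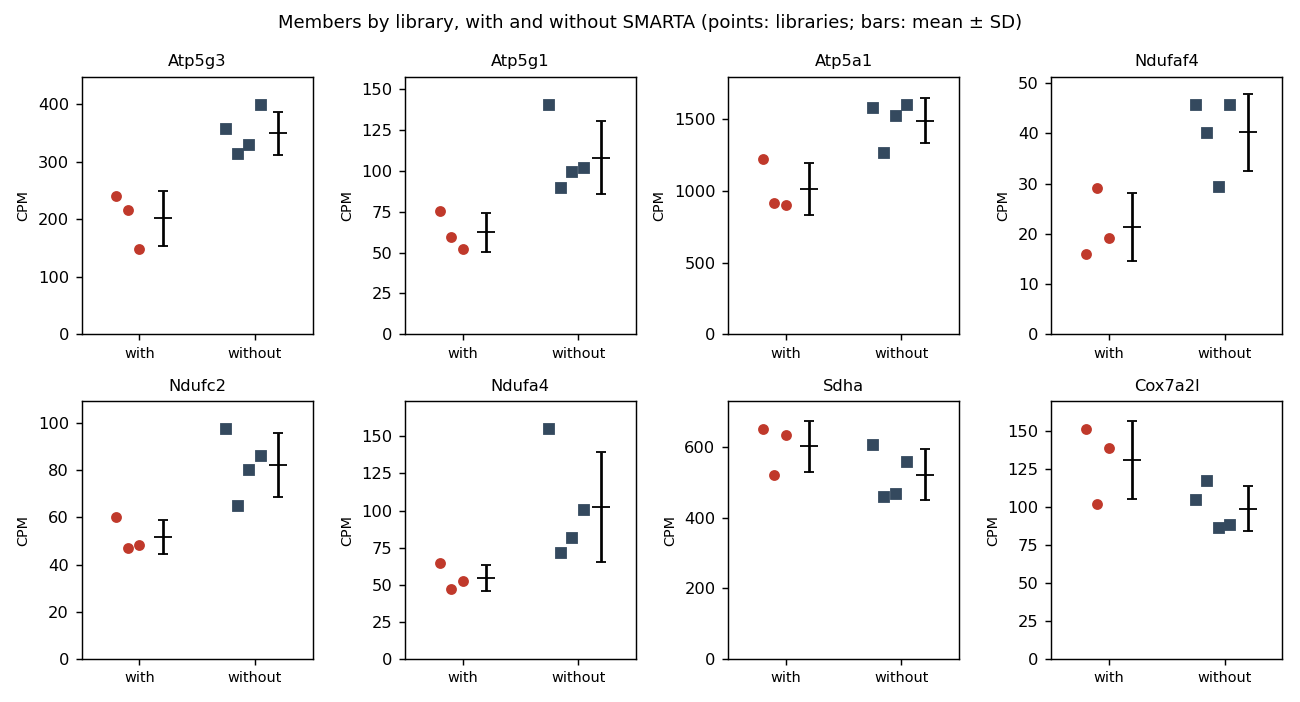
CPM of 8 members in every library with SMARTA (circles, left) and without (squares, right), with mean and SD. Atp5g3, Atp5g1, Atp5a1, Ndufaf4, Ndufc2 and Ndufa4 do not overlap between the groups, as for Atp5g3 at 149 to 242 CPM with SMARTA and 314 to 399 CPM without, while Sdha and Cox7a2l overlap and have higher means with SMARTA.

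Some members varied more among the libraries of a group than between the groups. The pattern described here was no more frequent among members than among all genes. In 12 of the 86, replicate 1 with SMARTA exceeded replicate 3 with SMARTA by over 0.5 on the log2 CPM scale, and replicate 3 without SMARTA exceeded replicate 1 without by as much. Among them were Atp5d, Atp5b, Cox5a, Cox6a1, Cox8a, Uqcrc1, Uqcrfs1, Ndufa6, Ndufa10, Ndufab1 and Ndufaf6, and they came from 4 of the 5 complexes. The same held for 16.4% of all genes tested, beside 14% of members. Across the 86 members the 2 differences between libraries had a Spearman rho of 0.61, against 0.31 across all genes, as a description over genes that share these libraries. Cox8a had 201, 142 and 63.4 CPM with SMARTA, against 90.2, 128, 183 and 133 CPM without, and Cox6a1 had 241, 156 and 75.5 CPM with SMARTA, against 126, 159, 231 and 179.6 CPM without. Cox5a, a matrix-side subunit of complex IV, had 41.6, 45.6 and 11.7 CPM with SMARTA, against 25.5, 36.8, 55.5 and 36.1 CPM without. Replicate 3 with SMARTA was the lowest of its group in all 3 genes, and replicate 1 was the lowest of the other group. The log2 fold changes of Cox8a, Cox6a1 and Cox5a were 0.02, −0.14 and −0.22, with 95% confidence intervals of −0.85 to 0.89, −0.99 to 0.71 and −1.27 to 0.83. The 12 had a median log2 fold change of −0.21, and the other 74 of −0.32. Their median GC content was 52.55%, against 49.9% in the other members, and their median exon length 2014.5 bases, against 1688. Over the 85 members with a GC value, GC content had a Spearman rho of 0.42 with the difference within the group with SMARTA and 0.38 with that within the group without. The part of either in the pattern was not tested. The 12, the 4 libraries and the direction of each difference were chosen after the values were seen, so a positive rho was in part built in. All members share these 4 libraries, and no test is given.

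**Figure D4:**
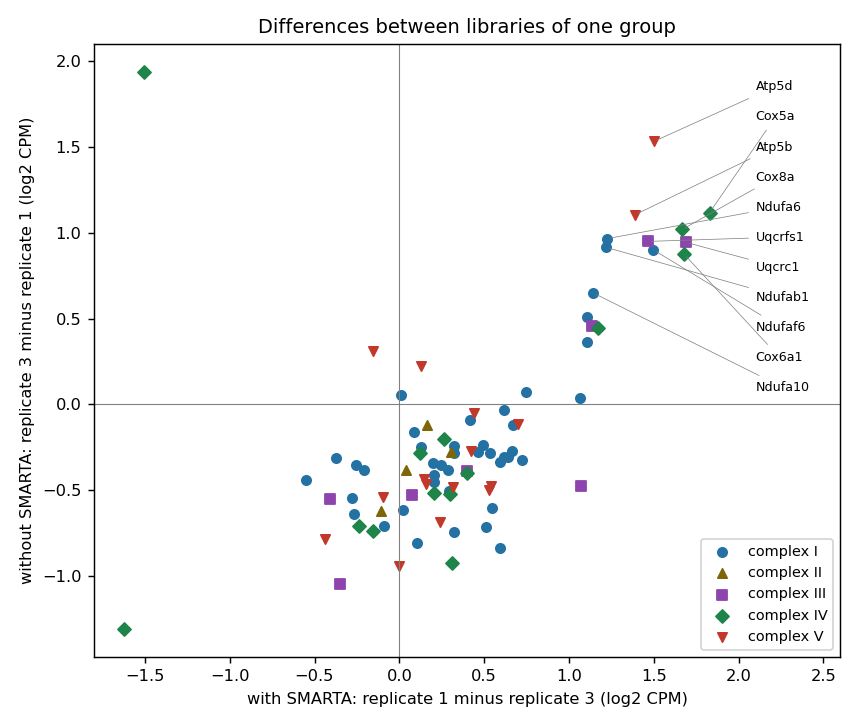
Each of the 86 members by its difference between replicates 1 and 3 with SMARTA (horizontal, log2 CPM) and between replicates 3 and 1 without (vertical, log2 CPM), with the complex as symbol. The 12 members described lie over 0.5 on both axes, those over 0.6 on the vertical axis with their names, and the 2 points far to the left are Cox6b2 and Cox7a1, the members with the fewest counts.

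The subunits encoded by mitochondrial DNA, which the nuclear members assemble with, gave more variable values in the same direction. Of 13 such genes, 8 were tested, and all 8 had negative log2 fold changes, with a median of −1.08 and 0 called. At an unadjusted p under 0.05, 2 lay lower (25%, against 9.37% of all genes) and 0 higher. The other 5, mt-Co2, mt-Co3, mt-Atp6, mt-Atp8 and mt-Nd4l, had 0 or 1 count in every library, and the reason was not tested. All 13 together summed to 1271, 2603 and 3055 CPM with SMARTA, against 3668, 6889, 2347 and 3311 CPM without. Replicate 2 without SMARTA, also the library with the most melanoma transcript, was the highest, and the groups overlapped. The ratio of the means was 0.570, or 0.91 without that library and replicate 1 with SMARTA, the lowest. Both ratios lean on mt-Co1, which averaged 1367 of 2310 CPM with SMARTA and 1936 of 4054 CPM without. mt-Nd1, a membrane-arm subunit of complex I, had 204, 385 and 406 CPM with SMARTA, against 697, 1043, 540.1 and 609 CPM without, with no overlap (log2 fold change −1.12, SE 0.32, adjusted p = 0.0953 by edgeR). mt-Cytb, the cytochrome b of complex III, had 214, 512 and 547 CPM with SMARTA, against 974, 1706, 575 and 784 CPM without (log2 fold change −1.25, adjusted p = 0.171 by edgeR). mt-Co1, the catalytic subunit of complex IV, overlapped (log2 fold change −0.50, adjusted p = 0.581 by edgeR).

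**Figure D5:**
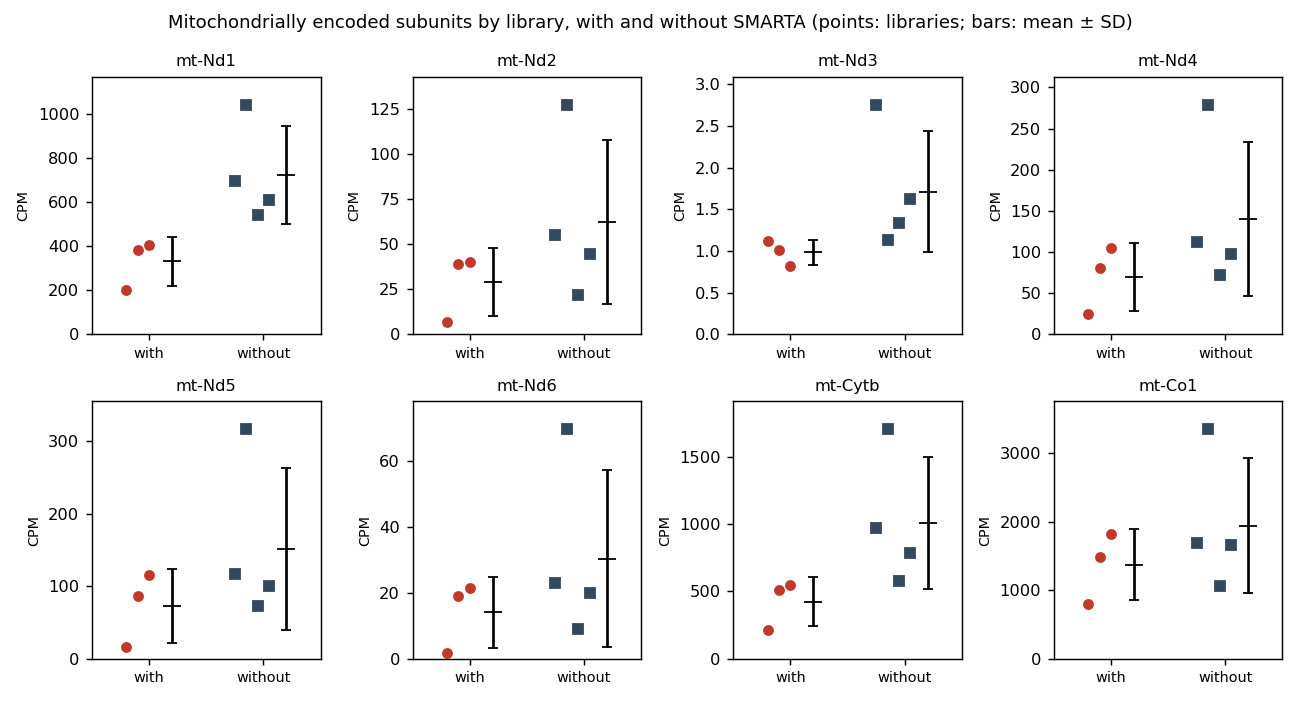
CPM of the 8 mitochondrially encoded subunits tested, in every library with SMARTA (circles, left) and without (squares, right), with mean and SD. mt-Nd1, mt-Nd3 and mt-Cytb do not overlap between the groups, and in 7 of the 8 panels replicate 2 without SMARTA is the highest library.

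None of the other mitochondrial gene lists held a called gene, and their medians ranged from −0.52 to 0.01. The 9 genes of cytochrome c and its partners outside the name rule had a median of −0.52. Among the 9, Etfb, part of the flavoprotein that collects electrons from fatty acid oxidation, had the smallest p. It had 28.7, 16.3 and 19.8 CPM with SMARTA, against 49.1, 35.2, 42.7 and 36.8 CPM without (log2 fold change −0.92, adjusted p = 0.104 by edgeR). Cyc1, the cytochrome c1 of complex III, is also on this list and overlapped between the groups (log2 fold change −0.52, adjusted p = 0.618 by edgeR). The 18 genes of mitochondrial protein import had a median of −0.49 with 17 negative, and Timm17a, in the inner-membrane translocase, had 88.2, 76.7 and 86.0 CPM with SMARTA, against 171, 107, 132 and 136 CPM without (log2 fold change −0.71, adjusted p = 0.103 by edgeR). The 16 genes of carriers, coupling and cristae had a median of −0.39, and Slc25a5, an ADP/ATP carrier, had 716, 571 and 647 CPM with SMARTA, against 1280.0, 857, 911 and 1054 CPM without (log2 fold change −0.67, adjusted p = 0.101 by edgeR).

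The 77 mitochondrial ribosomal protein genes, which serve translation of the mitochondrial subunits, had a median of −0.32, with 61 negative, beside −0.31 over the respiratory chain members. Their smallest p was that of Mrps6, which averaged 19.6 CPM with SMARTA and 50.9 CPM without (log2 fold change −1.38, SE 0.33, adjusted p = 0.0597 by edgeR). The 20 tricarboxylic acid cycle genes lay nearer to the background, with a median of −0.11, and Fh1, fumarase, had 58.9, 61.4 and 35.4 CPM with SMARTA, against 95.1, 63.7, 109 and 121 CPM without (log2 fold change −0.90, adjusted p = 0.139 by edgeR). The 33 assembly factors of complexes II to V had a median of −0.07, but Lrpprc, which stabilizes mitochondrial messenger RNAs, came closest to the threshold of all genes on these lists, at 12.7, 14.9 and 12.8 CPM with SMARTA, against 27.2, 30.7, 28.0 and 23.6 CPM without (log2 fold change −1.02, SE 0.23, adjusted p = 0.0505 by edgeR). The 9 further complex I assembly factors had a median of −0.14, and their smallest p was that of Tmem126b, at a log2 fold change of 0.28 (adjusted p = 0.506 by edgeR). The 14 regulators of mitochondrial biogenesis were balanced, with 7 negative, 7 positive and a median of 0.01. Among them Myc, a transcription factor of growth and biogenesis, had 201, 184 and 61.6 CPM with SMARTA, against 260.4, 366, 369.9 and 468 CPM without, with no overlap (log2 fold change −1.30, SE 0.40, adjusted p = 0.122 by edgeR).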

How the data were processed

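RNA from sorted CD8 T cells (6 to 15 ng) was amplified over 12 cycles with SMART-seq V4, a kit that does not mark strand, and read in pairs of 50 bases, per the labels' protocols. The deposited values are raw counts per gene name, made by the authors with STAR 2.6.0c and featureCounts 1.6.2 on GRCm38.p6, per the submitters' processing notes, with GENCODE M17 per the file headers. A gene that shares exons with another keeps fewer counts than it has reads; this held for over 20% of exon length in 4 members (Atp5o, Ndufa13, Ndufaf2 and Ndufb6). Without strand, reads of a gene and an antisense partner cannot be told apart.

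Here, genes kept by filterByExpr (minimum count 10) in 7 libraries, 3 with and 4 without SMARTA, were tested with edgeR 4.0.16 under R 4.3.3 (TMM factors, robust quasi-likelihood fit, common dispersion 0.28, two-sided), with Benjamini-Hochberg adjustment over all genes. CPM and RPKM were computed from the counts and TMM factors, with RPKM per kilobase of the exon length in the count files. No library pair of a group agreed within sampling noise (chi-square over its degrees of freedom, 93.5 to 444). The script was tested on data simulated with the spread of these libraries, with changes planted in genes drawn from all tested. There, edgeR called 35% of planted 4-fold and 0% of 2-fold changes, with 5 false calls, and DESeq2 60% and 24%, with 58. At 0.05 of that spread, edgeR called 95% and 81%, with 13 false calls. The members were measured more tightly than the genes these rates describe. The 95% confidence interval lay within 2-fold for 55 of 86 members, against 3905 of 15896 genes. The rates for the members themselves were not measured. An absent call still does not show an absent difference.

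The members and lists were chosen with earlier results of these data known. In each complex the 3 members with the smallest p and the most abundant by RPKM were named, with hallmark subunits, isoform sets and, from each list, the gene with the smallest p. Other members were named after their values were seen. Alternatives were other scalings, filters, DESeq2 1.42.0, limma 3.58.1 voom, length and GC trends (mgcv 1.9.3), a replicate block and leaving out libraries. A result of 1 named member is not reported here.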

Additional observations from a re-analysis of the deposited data

Results flagged for a closer look

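Cox6b2, the testis isoform of a complex IV subunit, had 0.810, 0.870, 3.23 and 0.970 CPM in replicates 1 to 4 without SMARTA, so replicate 3 stood apart from the other libraries of its group. On the log2 scale the gap to the nearest library was 0.872 of the group's range, above Dixon's critical value for 4 samples. It was the 1 such case among 39 sets of values tested, where chance gives about 1 in 20.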

How the results depend on the processing

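Members called numbered 0, all genes called 500 and the median log2 fold change of the members −0.31. Members called moved to 1 (Atp5g3) with a filter of CPM at least 5 in 3 libraries (842 of all genes), to 6 with DESeq2 (1741), to 6 with limma-voom under sample quality weights (1537; Atp5a1, Atp5g1, Atp5g3, Ndufa4, Ndufc2 and Ndufs8), and, in alternatives chosen after seeing the data, to 1 (Atp5a1) with the GC trend removed (954) and to 5 with both libraries that stand apart left out (1257, median −0.50). All of these calls were lower with SMARTA, and members called higher stayed at 0 in every alternative. A GC value was at hand for 77.3% of the genes tested, so the check of GC over all genes is void, though 85 of 86 members had one. Leaving out 1 library gave 0 to 1 members called, 0 to 1 called lower, 17 to 907 of all genes and medians of −0.44 to −0.27. All genes called fell to 17 without replicate 4 without SMARTA, 65 and 98 without its replicates 1 and 3, and 53 and 37 without replicates 3 and 2 with SMARTA, and rose to 907 without its replicate 1. At an adjusted p under 0.01, 7 of all genes were called. With a replicate block, and with the block and the length trend together, 0 of all genes and 0 members were called. Deviations from the group mean in samples with one number had correlations of −0.14, 0.03 and −0.27 across genes. So few libraries per group cannot settle whether such samples are paired, and the labels give only the number. With the length trend alone, the median was −0.24 and 69 members were negative. The remaining alternatives gave 0 members called and medians of −0.46 to −0.30. Of 702 recomputed fold changes of the named members, 660 kept direction and side of the threshold, 18 passed it and 24 changed sign. The sign changed for Ndufs7 with the length trend (0.035; 0.016 with the block) and for Cox6b2 with voom quality weights (0.041). Cox8a, at 0.02, turned to −0.11 by library totals, −0.005 with no filter, −0.05 with CPM at least 5, −0.063 with voom, −0.18 with quality weights, −0.057 with the block, −0.13 with the GC trend and −0.40 without both libraries. Leaving out 1 library moved Ndufs7 over −0.40 to 0.16, Uqcrc1 over −0.72 to 0.081, Cox5a over −0.53 to 0.16, Cox6a1 over −0.59 to 0.16, Cox6b2 over −0.61 to 0.39 and Cox8a over −0.38 to 0.33. The causes were not tested.

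Depth limits Cox7a1 and Cox6b2, the members with the fewest counts.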
